A study of Mus musculus with 2 samples.

Results

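The genes examined carry symbols given to proteins of the mitochondrial ribosome, and the symbol alone decided membership. Their probe sets, groups of short oligonucleotides that report on a transcript, were chosen from the array annotation as those assigned to exactly 1 gene symbol that starts with Mrpl or Mrps followed by a number. This gave 156 of 45037 probe sets, which stand for 76 of the 18193 genes with a probe set of a single symbol. Of these 76 genes, 47 carry an Mrpl symbol (104 probe sets, large subunit) and 29 an Mrps symbol (52 probe sets, small subunit). Whether the product of each, for example Mrps36, is built into the ribosome was not checked. A further 4 probe sets name a mitochondrial ribosomal protein together with another gene and were left out.

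Cells from the bone marrow of wild-type C57BL6J mice were profiled on 2 Affymetrix arrays. Both arrays carried RNA from cells described as gene-transduced LSK Flt3- cells. The term names a marrow fraction without lineage markers and without the Flt3 receptor, with Sca-1 and much c-Kit, in which haematopoietic stem cells are concentrated. On 1 array the cells had received GFP, the control, and on the other Satb1, whose product is a chromatin organiser with affinity for AT-rich stretches of DNA. The comparison asks which transcripts differ once Satb1 is introduced. Neither the age of the mice, nor the number of animals or cultures behind an array, nor the vector and its promoter was given in the sources used here.

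Each group is a single array. Every difference below therefore comes from n = 1 against n = 1 and cannot be checked by replication, and no standard error or p-value can be given. Intensities are MAS5 values, in which an Affymetrix algorithm summarises each probe set as 1 number on a linear scale. Differences are log2 intensity on the Satb1-labelled array minus log2 intensity on the GFP-labelled array. Values under a floor of 61.7, the median of all intensities of both arrays, were counted as lying at the floor. A gene is represented by its brightest probe set. In bulk RNA, fewer cells of a type and less RNA per cell cannot be told apart.

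The labels were checked first. All 5 Satb1 probe sets were lower on the Satb1-labelled array. The 3 above the floor on both arrays read 1116, 964 and 288 on the GFP-labelled array and 909, 908 and 165 on the other, differences of -0.30, -0.085 and -0.81. A further one went from 81.4 to 30.5, below the floor, and the last was below it on both arrays (27.8 and 18.5). The introduced gene was thus not brighter on the array that carries its name, and the stretch of transcript that each probe set covers was not determined. All directions therefore rest on the labels. Kit (3293 and 3388) and Cd34 (8563 and 8197), markers of progenitors, were bright on both arrays (the GFP-labelled one is given first, here and below). Flt3, whose receptor the named fraction lacks, read 1390.4 and 1334, above the medians of genes over the floor on both arrays (849 and 822). Whether the cells still had the traits of that fraction when RNA was taken was not tested. The summed intensity of 4 measured stem and progenitor markers was 13342 and 13152, in the same order, and the dimmest of them, Slamf1, read 95.7 and 233. All 3 measured B cell markers and 3 of 4 T cell markers lay below the floor on both arrays, and so did 1 of 2 measured erythroid markers, Alas2 (1.6 and 1.3). The T cell marker above the floor, Cd8a, read 88.9 and 147.5 (0.73) and the other erythroid marker, Klf1, 87.1 and 138 (0.67). The summed intensity of 4 measured granulocyte and monocyte markers went from 8898 on the GFP-labelled array to 18317 on that labelled Satb1, and that of 4 mast cell and basophil markers from 13696 to 7421, with no marker of either list below the floor. In the first sum S100a8 (3094 and 10109) and S100a9 (1578 and 4539) were higher, while Csf1r (4099 and 3548.5) and Itgam (127 and 121) were lower. All 4 markers of the second list were lower. The sum of 4 megakaryocyte markers, all higher, went from 24738 to 28449, with Pf4 at 19179 and 21045 (0.13), Itga2b at 3515 and 3841 (0.13), Ppbp at 1752.5 and 3075 (0.81) and Gp1bb at 292 and 488.5 (0.74). What part these cells have in the differences below was not tested.

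Mitochondrial ribosomes sit in the mitochondrial matrix and translate the few messages that mitochondrial DNA encodes, all for subunits of the respiratory chain and the ATP synthase. Their RNA is made in the organelle, but every one of their proteins is encoded in the nucleus, made in the cytosol and imported. The large subunit joins amino acids, and the small subunit reads the message. Haematopoietic stem cells are known for relying little on respiration, and mitochondrial activity increases as they leave dormancy and differentiate.

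All 76 genes were above the floor on both arrays. The GFP-labelled array gave 511 to 7067, the Satb1-labelled one 554 to 8102, with medians of 2352 and 2412. Among the 10316 genes above the floor on both arrays the medians were 849 and 822. Of the mitochondrial ribosomal protein genes, 71 were brighter than the median of these genes, 9 were in the brightest of 10 bins of equal number, and 68 read over 1000 on both arrays. Intensities of different probe sets depend on how well each hybridises, so these figures describe the signal and not the order of RNA amounts.

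The highest signals came from Mrps14, a protein of the small subunit head (7067 on the GFP-labelled array and 8102 on the Satb1-labelled one), and Mrpl51, a large subunit protein with no bacterial counterpart (6933.5 and 7019). Mrpl12 of the stalk read 6590.3 and 6601, Mrpl39 6064 and 5807, Mrpl57 5588 and 5471 and Mrpl24 of the exit tunnel 5505 and 5035 on the same 2 arrays in that order. At the other end, Mrpl37 read 587 and 554, Mrps27, an RNA-binding protein of the small subunit, 511 and 643, and Mrpl1 654 and 640.3. Mrps31 (781 and 755), Mrpl38 of the central protuberance (818 and 811.5) and Mrpl49 (924 and 914) were the next dimmest.

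**Figure D1:**
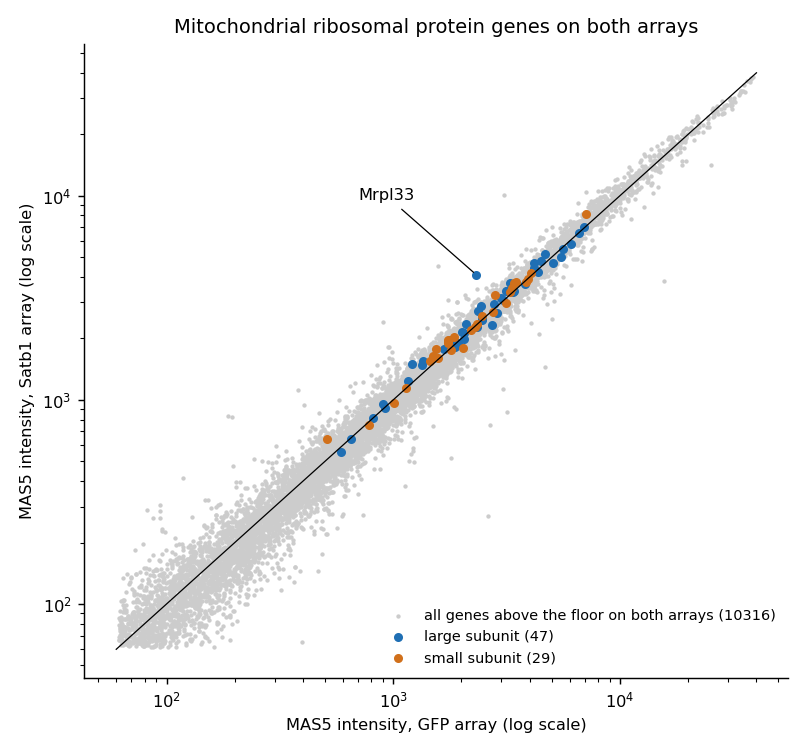
MAS5 intensity of each gene on the GFP-labelled array (x axis, log scale) against the Satb1-labelled array (y axis, log scale), with 1 point per gene and the line of equal intensity. The 47 large subunit and 29 small subunit genes lie along the line among the 10316 genes above the floor on both arrays, and Mrpl33 lies apart, at 2324 and 4100.3.

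Across the family the 2 arrays were close. No member was 2-fold apart in either direction, where 0.272% of the 11048 genes above the floor on at least 1 array were higher and 0.86% lower by that much. After quantile normalization 54 genes of the table were 2-fold higher and 61 lower, in place of 30 and 95, and still no member was among them. At this background a count of 0 among 76 genes does not set the family apart. At 1.5-fold, 1 member was higher (1.75% of all genes) and 0 were lower (3.91%). Of the 76 differences, 48 (63.2%) lay between -0.1 and 0.1, beside 37.5% of all genes above the floor on both arrays and 47% of genes in the same intensity bins. Between -0.2 and 0.2 lay 68 (89.5%), beside 65% and 78.1%.

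Mrpl33 was the member at 1.5-fold or more. It encodes a small protein of the large subunit that has a counterpart in bacteria. Its bright probe set read 2324 on the GFP-labelled array and 4100.3 on the Satb1-labelled one, a difference of 0.82 or 1.76-fold. In its bin of genes of like intensity, number 9 of 10 from dim to bright, the middle 95% of differences ran from -0.36 to 0.33, and only 2 of 1031 genes, Mrpl33 included, were at least this high. Of all 10316 genes, 59 were. The other Mrpl33 probe set did not reach the floor on either array, at 45.3 and 54.6, so the difference rests on 1 probe set, and with the mean over both it was 0.54, under 1.5-fold. With such means, which include probe sets below the floor, 0 members were 1.5-fold higher and 2 lower, Mrpl1 (-0.84) and Mrpl42 (-0.64). No other member lay above the middle 95% of its bin (2.52% of all genes did) and 0 lay below (2.52%).

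Several further members stood somewhat higher on the Satb1-labelled array, by under 1.5-fold. Mrps27 read 511 and 643, a difference of 0.33. Mrpl50, a large subunit protein without a bacterial counterpart, read 1205 and 1502 (0.32). Mrpl22 of the exit tunnel read 2444 and 2884.5 (0.24), and Mrps28, counted with the family of bacterial protein S1, read 2803 and 3273 (0.22). Mrps35 (1539 and 1773), Mrpl19 (2362 and 2719) and Mrpl9 (1350.3 and 1551) differed by 0.20, 0.20 and 0.20. In each of these 7 genes the Satb1-labelled array was the brighter one, and in each the difference lay inside the middle 95% of genes of like intensity.

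On the lower side the differences were smaller still. Mrpl44, a large subunit protein with a ribonuclease III-like fold, had the lowest, at 2738 and 2332 and -0.23. Mrps25 read 2039.5 and 1787 (-0.19), while its other probe set above the floor on both arrays read 388 and 388.9 (0.0033). Next came Mrpl24 (5505 and 5035, -0.13) and Mrpl23 (5079.7 and 4687, -0.12), neighbours at the exit of the tunnel through which new proteins leave. Mrpl52 read 2854.5 and 2671 (-0.10) and Mrpl37 587 and 554 (-0.083). Mrps12, the protein at the decoding centre, read 3136 and 2985 (-0.071), and Mrps5, which lines the entry of the message, 1009 and 963 (-0.067). All 8 were brighter on the GFP-labelled array.

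**Figure D2:**
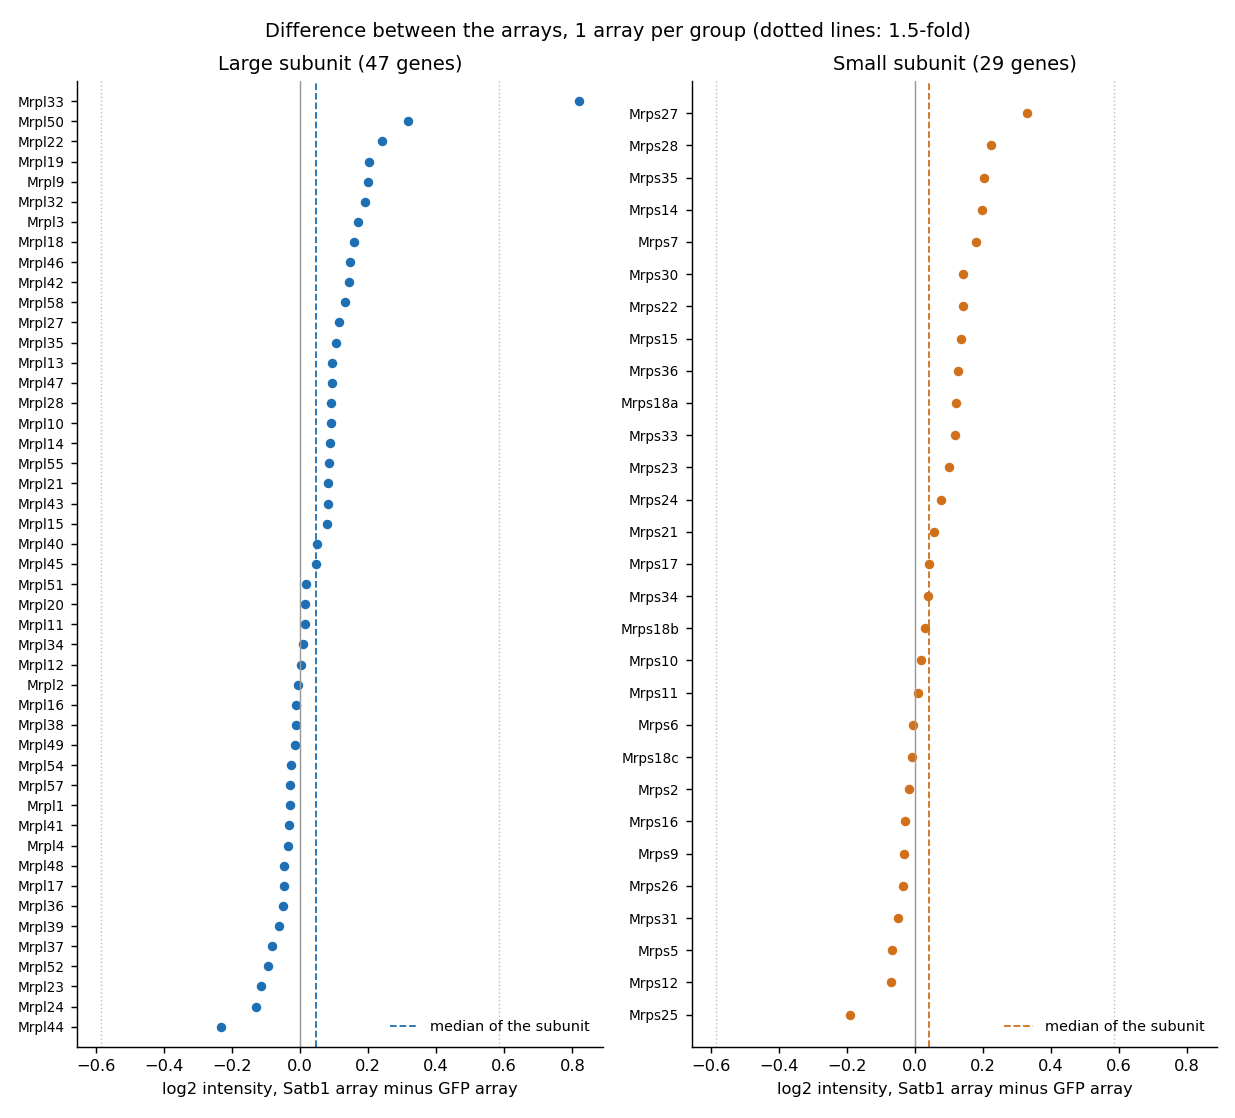
Difference in log2 intensity between the Satb1-labelled array and the GFP-labelled array (x axis) for each gene, named on the y axis, in the large (left) and small (right) subunit. Each point is a single value from 1 array per group, dashed lines are the subunit medians of 0.047 and 0.042, and dotted lines mark 1.5-fold, which Mrpl33 alone passes.

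Taking all members, 48 were higher on the Satb1-labelled array by some amount and 28 lower. Of all genes above the floor on both arrays, 45.7% were higher and 54.3% lower, and of the members 63.2% were higher. The members' median difference was 0.045, with quartiles of -0.029 and 0.13, beside -0.021 for all genes. Brighter genes had higher differences on these arrays. The median over all genes was -0.087 in the dimmest bin and 0.035 and 0.033 in the brightest 2 bins. Set against the median of its own bin, a member was higher in 47 cases and lower in 29, and the median distance was 0.037. After quantile normalization 45 were higher and 31 lower, with a median of 0.028 against 0.0003 for all genes. No replicate array shows how far a median of 76 genes varies.

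The large and small subunits had nearly equal medians. Among the 47 large subunit genes 29 were higher and 18 lower, with a median of 0.047 and a range from -0.23 to 0.82. Among the 29 small subunit genes 19 were higher and 10 lower, with a median of 0.042 and a range from -0.19 to 0.33. The medians differed by 0.0048. Mrps30 and Mrps18a, despite their names, are built into the large subunit, and with both counted there the medians were 0.048 and 0.038. Their own values were 1491 and 1645 for Mrps30 (0.14) and 1857.5 and 2021 for Mrps18a (0.12). With the mean over the probe sets of each gene the large subunit's median was 0.0023 and the small subunit's 0.042, and without Mrpl33 the large subunit's was 0.032 and the order of the subunits thus turned with both choices.

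Members were then grouped by whether a list named a counterpart in bacterial ribosomes. Many mitochondrial ribosomal proteins belong to families that bacterial ribosomes also hold. For the others the list named no counterpart, which does not show that none exists. Mrps18c was listed with one, while Mrps18a and Mrps18b were counted with the others. The 45 genes with a listed counterpart had a median difference of 0.055 (30 higher, 15 lower) and the 31 others 0.038 (18 higher, 13 lower). The subunits, with Mrps30 and Mrps18a counted in the large one, went opposite ways in this respect. In the large subunit the 29 genes with a bacterial counterpart had the higher median, 0.084 against 0.0028 for the 20 others, while in the small subunit the 16 such genes had 0.015 and the 11 others 0.099. None of these gaps can be tested with 1 array per group.

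By place on the ribosome, the values were as follows. In the stalk that recruits translation factors, Mrpl12, which also binds the mitochondrial RNA polymerase, read 6590.3 and 6601 (0.0023). Its anchor Mrpl10 read 1165 and 1239.7 (0.089), Mrpl11 at the stalk base 2469.9 and 2493.5 (0.014) and Mrpl54 1926 and 1890.0 (-0.027). The 4 measured stalk genes of 5 listed thus lay close to equal intensity by their brightest probe sets, with 3 higher and a median of 0.0080. After quantile normalization 1 was higher and the median was -0.027. Dimmer probe sets differed more for Mrpl54 (92.8 and 65.7, -0.50) and in part for Mrpl11 (-0.46, -0.071 and 0.089).

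The central protuberance, a projection of the large subunit that faces the head of the small one, had 4 of 6 genes higher and a median of 0.066. Mrpl18 read 4183 and 4666 (0.16) and Mrpl46 1345 and 1488 (0.15). Mrpl55 read 899 and 953 (0.084) and Mrpl40 2051 and 2121 (0.048), while Mrpl38 (-0.012) and Mrpl48 (1870.1 and 1810.2, -0.047) were slightly lower. The other Mrpl38 probe sets were higher, at 215.7 and 235 (0.12) and at 79.7 and 119.5 (0.58). After quantile normalization 5 of the 6 protuberance genes were higher and their median was 0.074. At the rim of the exit tunnel 3 of 6 were higher and 3 lower, with a median of -0.00035. There Mrpl22 (0.24) and Mrpl24 (-0.13) were the ends of the range. Mrpl47 read 2017.5 and 2151 (0.093), Mrpl45, which anchors the ribosome at the inner membrane, 1789 and 1848 (0.047), and Mrpl17 3811 and 3687 (-0.048).

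In the small subunit, the head held Mrps14 (0.20) and Mrps7 (1737 and 1966, 0.18) on the higher side. Mrps10 (2335 and 2365, 0.019), Mrps2 (2306 and 2278, -0.018) and Mrps9 (1792 and 1753, -0.031) were near 0. On the platform, Mrps11 read 1139 and 1147.5, Mrps18c 3942 and 3922 and Mrps6 2207 and 2199, the 3 members with the least spread of any place group, from -0.0075 to 0.01. That range holds for the brightest probe sets only, as the other Mrps6 probe set differed by 0.28. Along the path of the message, Mrps12 and Mrps5 were lower, as given above, and Mrps24 was higher (3335 and 3518, 0.077). The head's median of 0.019 was -0.0082 after quantile normalization. Counts of 3 to 6 genes per place, each read once, cannot separate the places.

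How far a single difference can be trusted was judged from genes with several probe sets. Of the 156 probe sets, 136 were above the floor on both arrays, 3 on 1 array and 17 on neither. For 35 genes at least 2 probe sets were above the floor on both arrays. In 17 of these genes all probe sets differed in the same direction, and in 18 they did not. The SD of the difference between probe sets of 1 member gene was 0.21, beside 0.27 over all 4840 genes with several such probe sets. Errors common to all probe sets of a gene are not in this SD, for example one from the RNA preparation.

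The lowest member, Mrpl44, was the only one with 4 probe sets above the floor that all differed in 1 direction. Its 4 probe sets read 2738 and 2332, 2378 and 2024, 1055 and 946 and 719 and 591, with the GFP-labelled array first, and their differences ran from -0.28 to -0.16. Both Mrpl50 probe sets were higher, at 1205 and 1502 and at 1071 and 1154, though by unequal amounts (0.32 and 0.11). Both Mrps14 probe sets above the floor were higher (0.20 and 0.14), as were both of Mrps15 (3404 and 3741 and 2810.5 and 3277, 0.14 and 0.22).

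The widest disagreement was in Mrps10, whose bright probe set differed by 0.019 and whose dim one, at 160.0 and 70.8, by -1.18. In Mrpl15, the gene with the most probe sets (8), the 4 over 1000 on both arrays differed by 0.044 to 0.11, and 3 dimmer ones by -0.17 to -0.40. For Mrpl11 the brightest probe set gave 0.014, and another bright one, at 2394 and 2279, gave -0.071. Dimmer Mrpl11 probe sets read 637 and 462.5 (-0.46) and 86.7 and 92.2 (0.089). The 3 Mrpl19 probe sets above the floor, of 4, ran from -0.20 to 0.20. In Mrps6 the brightest probe set, whose design allows matches to other transcripts, gave -0.0054, and the other, at 928 and 1124, gave 0.28.

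**Figure D3:**
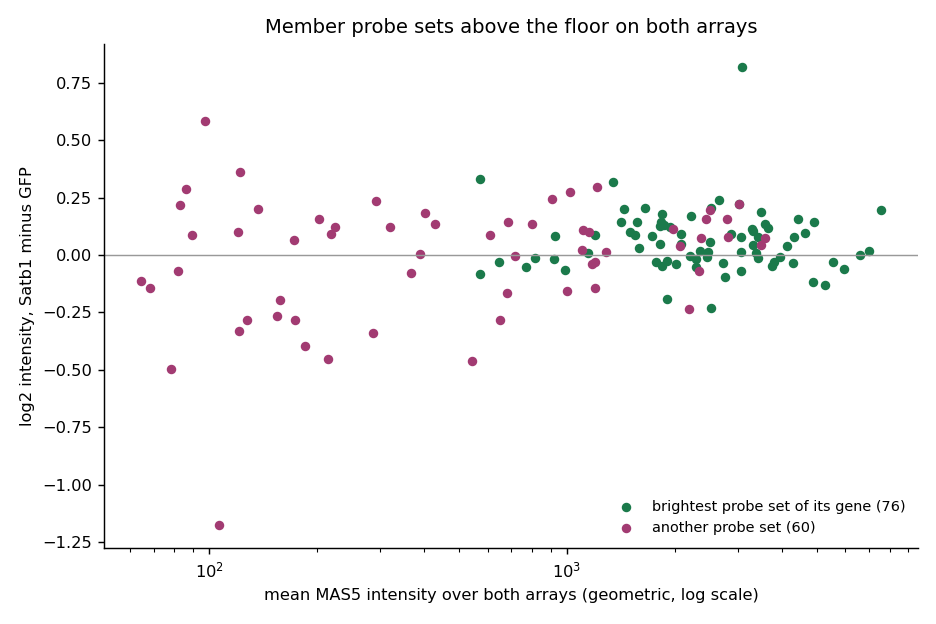
Difference in log2 intensity (y axis) against the geometric mean MAS5 intensity over both arrays (x axis, log scale) for the 136 probe sets that passed the floor on each array. The 76 brightest probe sets of their genes (green) cluster near 0 apart from Mrpl33, and the 60 others (purple) spread more widely at low intensity, down to -1.18 for Mrps10.

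What the members share besides their names was looked for in the 300 bases around their starts, 250 before and 50 after, taken from RefSeq on the mouse assembly GRCm38.p6. Of the 76 genes 67 had such a window, on 16 chromosomes with at most 10 on any 1. Short motifs were searched on both strands, namely the ETS motif CCGGAAG, bound by factors such as GABPA, the YY1 motif AAGATGG, the half-site GCGCATG of the NRF1 motif and the TATA box TATAAA. These nuclear factors are known regulators of mitochondrial genes. The first-listed window of each gene was used. The ETS motif was present in 24 of the 67 members (35.8%), beside 20.1% of the 8446 genes with a window that were above the floor on both arrays and 9.12% of all 27025 genes of the promoter table, which also holds genes that the array does not name. YY1 was present in 13 (19.4%, beside 7.78% and 6.48%), and the NRF1 half-site in 8 (11.9%, beside 7.72% and 4.04%). A TATA box was found in 4 (5.97%, beside 6.68% and 14.2%).

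At least 1 of the first 3 motifs was present in 36 members (53.7%), in 22 of 41 large and 14 of 26 small subunit genes, beside 31.7% of the genes above the floor. In 22 members (32.8%) the window overlapped that of another gene starting on the other strand, beside 18.6% and 11.1%. These shares describe letters in a window and were not tested, and a match is not evidence that a factor binds. Members with the ETS motif had a median difference between the arrays of 0.081 and those without it 0.014. For the YY1 motif the medians were 0.077 and 0.037, and for the 8 members with the NRF1 half-site 0.14 beside 0.019. For the 4 members with a TATA box they were 0.060 beside 0.031. For the 22 with a start on the other strand they were 0.081 beside 0.019. The groups share members, for example Mrps27 (ETS, YY1 and a start on the other strand) and Mrps24 (YY1 and TATA). These splits are therefore not independent of one another, and the same split over all genes was not made.

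**Figure D4:**
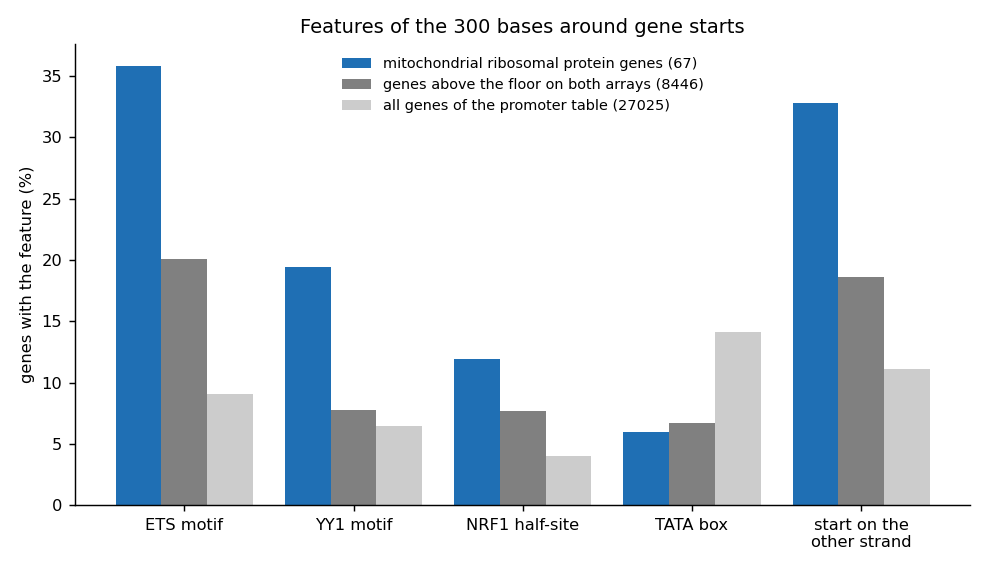
Share of genes (y axis, percent) whose window of 300 bases around the start holds each motif on either strand, or overlaps the window of a gene on the other strand. The members (blue, 67 genes) exceed the genes above the floor (dark grey, 8446) and all genes of the promoter table (light grey, 27025) in every feature but the TATA box, for example 35.8%, 20.1% and 9.12% for the ETS motif.

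The 250 bases before the start are shown for the 2 members with the highest difference, the member with the lowest and the brightest member, all on the + strand of GRCm38.p6, with complete motif matches in capitals. They are shown because the values above turn on these genes. Mrpl33 (chr5:31613701-31613950) holds the NRF1 half-site 12 bases before the start, and an ETS motif begins 3 bases before the start and runs past the end of the printed stretch. Mrps27 (chr13:99344536-99344785) holds the ETS motif on the other strand. Mrpl44 (chr1:79775768-79776017) and Mrps14 (chr1:160194965-160195214) hold none of the 4 motifs in these letters. The share of G and C was 45.2%, 71.6%, 38% and 58.8% in that order.
Mrpl33: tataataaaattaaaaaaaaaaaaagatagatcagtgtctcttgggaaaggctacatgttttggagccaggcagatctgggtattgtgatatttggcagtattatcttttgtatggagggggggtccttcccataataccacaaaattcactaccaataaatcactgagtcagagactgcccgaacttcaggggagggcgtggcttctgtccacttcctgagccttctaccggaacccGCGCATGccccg
Mrps27: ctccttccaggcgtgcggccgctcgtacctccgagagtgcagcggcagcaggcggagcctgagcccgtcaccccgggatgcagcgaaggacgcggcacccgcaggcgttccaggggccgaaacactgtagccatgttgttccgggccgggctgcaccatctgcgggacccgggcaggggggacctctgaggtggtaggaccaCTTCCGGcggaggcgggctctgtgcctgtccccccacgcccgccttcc
Mrpl44: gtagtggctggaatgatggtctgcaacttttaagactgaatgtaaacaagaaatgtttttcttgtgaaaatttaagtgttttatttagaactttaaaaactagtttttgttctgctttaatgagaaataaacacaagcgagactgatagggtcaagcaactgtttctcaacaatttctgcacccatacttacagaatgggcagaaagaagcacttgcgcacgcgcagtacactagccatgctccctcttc
Mrps14: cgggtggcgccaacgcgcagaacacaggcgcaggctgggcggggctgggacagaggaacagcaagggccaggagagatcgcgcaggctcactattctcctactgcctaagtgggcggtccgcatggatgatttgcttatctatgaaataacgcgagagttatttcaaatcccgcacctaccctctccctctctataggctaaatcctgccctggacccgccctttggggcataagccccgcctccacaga

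The rest of the mitochondrial translation machinery was read from lists. None of its genes was 2-fold apart, beside 1.13% of all genes. The 4 measured mitoribosomal proteins with other names had 2 higher and 2 lower, with a median of -0.00057. Dap3, a GTP-binding protein of the small subunit, read 2813 and 2917 (0.052), Ptcd3 1952 and 1859 (-0.07), Chchd1 5557 and 5477 (-0.021) and Gadd45gip1 of the large subunit 2189.7 and 2219.6 (0.02).

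Translation factors were split, with 5 of 11 measured genes higher and 6 lower and a median of -0.053, which was 0.0047 after quantile normalization. Gfm2, which recycles ribosomes, read 259 and 332 (0.36), and Oxa1l, which inserts new proteins into the inner membrane, 816 and 999 (0.29). Mtfmt, which formylates the initiator tRNA, read 757 and 658 (-0.20), and Mtif3, an initiation factor, 236 and 269.5 (0.19). The brightest, the initiation factor gene Mtif2, read 2285 and 2155 (-0.085).

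Assembly factors and enzymes that modify the ribosomal RNA had 19 of 25 genes above the floor lower by some amount, beside 54.3% of all genes, and a median of -0.086. After quantile normalization 15 were lower and 10 higher, and 14 were below and 11 above the median of genes of like intensity. Gtpbp10, a GTPase of large subunit assembly, read 537.5 and 355, a difference of -0.60 and the only one of the list past 1.5-fold (5.66% of all genes were, in either direction). After quantile normalization its difference was -0.54, just short of 1.5-fold. The methyltransferase gene Mrm1 read 500.0 and 342 (-0.55) and the pseudouridine synthase-like gene Rpusd3 276 and 213 (-0.37). The helicase gene Ddx28 went the other way, at 475 and 621 (0.39). The brightest, the helicase gene Dhx30, read 2800.5 and 2212.5 (-0.34).

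The enzymes that charge mitochondrial tRNAs had 14 of 19 measured genes lower, beside 54.3% of all genes, and a median of -0.17. After quantile normalization 12 were lower, beside 49.9% of all genes, and 12 were below the median of genes of like intensity. Gatb, part of the amidotransferase that makes glutaminyl-tRNA, read 217 and 164 (-0.40), Sars2 259 and 199.6 (-0.37) and Pars2 396 and 318 (-0.32). Aars2 was 1.5-fold higher or more (1.75% of all genes were), at 107 and 163 (0.61), and the brightest, Iars2, read 1322 and 1556.5 (0.24). These probe sets are dimmer than those of the ribosomal proteins, with a median of 540 on the GFP-labelled array. For the tRNA-charging list the median distance from genes of like intensity was -0.11, and for the assembly list -0.026. After quantile normalization the medians were -0.11 and -0.037.

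Genes for expression of mitochondrial DNA were split, 8 higher and 9 lower, with a median of -0.047. After quantile normalization the median was -0.012, and the median distance from genes of like intensity was 0.0028. Slirp, an RNA-binding partner of Lrpprc, read 3869.8 and 4423 (0.19) and Tfb2m, a factor for transcription start, 1578 and 1891.5 (0.26). Ptcd1 (218 and 156, -0.48), the DNA polymerase gene Polg (608.5 and 449, -0.44) and the termination factor gene Mterf1a (593 and 503, -0.24) were lower. Proteases and chaperones had 5 of 9 genes higher and a median of 0.0089, which was -0.021 after quantile normalization. The chaperonin gene Hspd1 read 12136.5 and 13425 (0.15), and Yme1l1 1412 and 1654 (0.23), Spg7 604 and 482 (-0.32) and Clpx 987 and 1063 (0.11), all protease components, were the furthest apart along with it.

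Among the nuclear regulators, 6 of the 8 above the floor were lower, beside 54.3% of all genes, and the median was -0.19. After quantile normalization 6 were lower and the median was -0.15. Ppargc1b, a coactivator, read 587 and 429.6 (-0.45), its partner receptor gene Esrra 718 and 573 (-0.33), Myc 7525.5 and 6079 (-0.31) and Nrf1 403.5 and 343.5 (-0.23). Yy1 and Gabpa, named here for the motifs above with their values known, read 6109 and 6087 (-0.0052) and 2706 and 2795 (0.047). Ppargc1a was below the floor, at 16.2 and 11.6.

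Related families were set beside the members. Of the oxidative phosphorylation subunits, nuclear genes of the respiratory chain and ATP synthase, 50 of 76 above the floor were higher, with a median of 0.035. Of all genes 45.7% were higher. Cytosolic ribosomal protein genes were picked by symbol, which gave 44, with Rps27l and Rps4l among them. Genes of that family without a probe set of a single symbol are not included. Of the 43 above the floor on both arrays 7 were higher and 36 lower, with a median of -0.087. Only 1 gene, Rps27 (738.5 and 272), was past 2-fold. The Rps27 probe set was far dimmer than the group's median of 28692 on the GFP-labelled array. So were others, for example those of Rpl39 (288), Rps4l (965.5), Rpl12 (1114.5) and Rpl27a (1408) on that array. Whether such probe sets report the main transcript of their gene was not determined. Against the genes of their intensity bins, 6 cytosolic genes were above and 37 below, with a median distance of -0.11, and 39 and 37 of the oxidative phosphorylation genes, with 0.0019. The brightest bin spans 4615 to 38387, and the cytosolic median lies in its upper part. Genes of that bin are therefore not closely alike in intensity. After quantile normalization the medians were -0.0047 for the cytosolic and -0.0013 for the oxidative phosphorylation genes, with 20 and 36 higher, while that of the members was 0.028. Whether the cytosolic genes stood apart thus depended on the scaling.

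**Figure D5:**
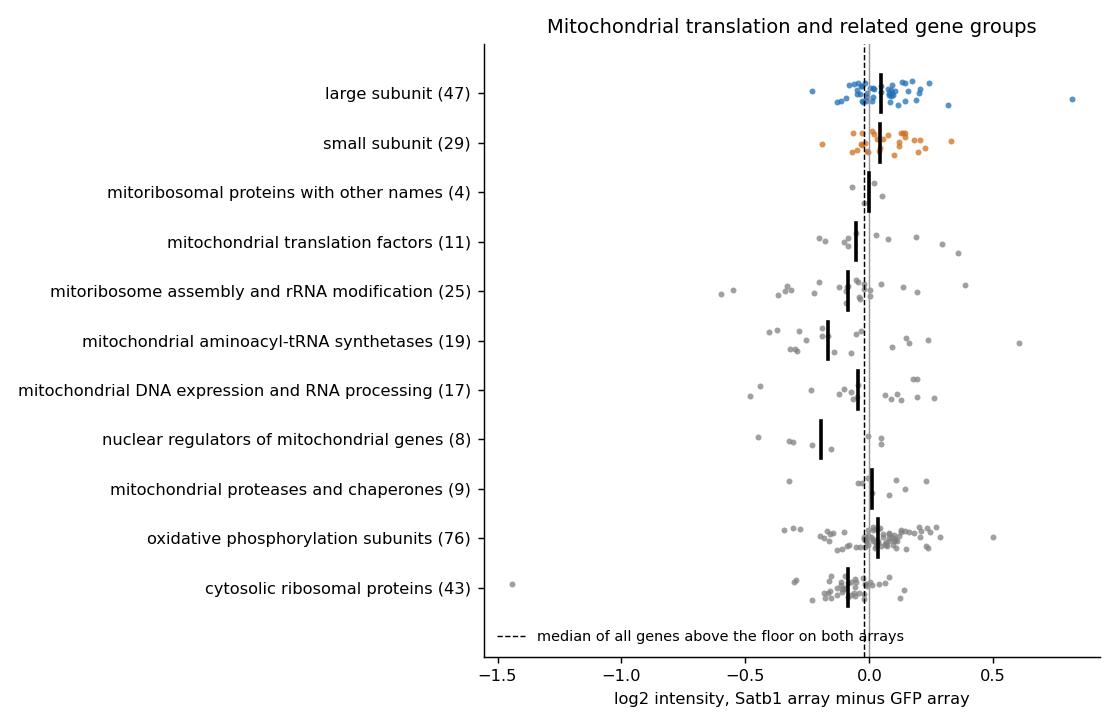
Difference in log2 intensity (x axis) of single genes above the floor on both arrays, by group (y axis, number of genes in brackets), with the group median as a black bar and the median of all genes as a dashed line. The subunit medians, 0.047 and 0.042, lie right of the line at -0.021, and those of the tRNA-charging enzymes (-0.17) and nuclear regulators (-0.19) left of it.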

How the data were processed

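Per the submitters' processing notes, the authors processed both arrays with MAS5, and the deposited table holds 1 intensity per probe set and array on a linear scale. Neither version nor scaling target was given in the sources used here. After trimming 2% of probe sets at each end, the mean was 497 on either array. Labels were taken from the transduction entry. From the deposited intensities, log2 values were computed with Python 3.11.15 and pandas 2.3.3, with no further normalization. Of 45037 probe sets, 34945 had 1 gene symbol in the platform annotation, 932 several and 9160 none, and 34741 of the single symbols were matched by Entrez gene ID in the GRCm38.p6 gene table. This renamed 0 members. Genes were put into 10 bins of equal number by mean log2 intensity, in which the middle 95% of differences was taken. No test was run, since each group is 1 array. Scripts were tested on simulated data. All members could be named, with full values for the brightest, the dimmest and those furthest apart, those at 1.5-fold or more and those of the groups by place. From the other lists, up to 4 genes furthest apart and the brightest were named. The members and lists were chosen with earlier results of these data known. Alternatives were the floor, quantile normalization, probe set choice, the updated symbols, subunit assignment, the fold threshold and leaving out Mrpl33. The number of arrays limits the precision.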

Additional observations from a re-analysis of the deposited data

How the results depend on the processing

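No paired analysis was possible because each group is 1 array, and for the same reason no replicate could be left out. Leaving out Mrpl33 was chosen after seeing the data. The count of members 2-fold apart was 0 under every alternative run, except with every probe set on its own, where it was 1 (the dim Mrps10 probe set), and with the 1.5-fold threshold, where it was 1 (Mrpl33). With every probe set on its own, 84 were higher and 52 lower. With other floors (the 25th and the 75th percentile, or none), quantile normalization, the mean over probe sets, no _x_at and _s_at probe sets, updated symbols and without Mrpl33, the median of the members stayed between 0.028 and 0.055. The gap between the subunit medians ran from -0.040 (mean over probe sets) to 0.011 (Mrps30 and Mrps18a in the large subunit), and was also below 0 with every probe set on its own (-0.0082) and without Mrpl33 (-0.0099). Quantile normalization brought the distance of the members' median from that of all genes from 0.065 to 0.028. The mean over probe sets, which includes those below the floor, moved 11 single genes by more than the within-gene SD and brought Mrpl33 from 0.82 to 0.54, under 1.5-fold. It took Mrpl1 from -0.031 to -0.84 and Mrpl42 from 0.14 to -0.64, so that 0 members were 1.5-fold higher and 2 lower, in place of 1 and 0. The other probe set of Mrpl42 read 4.8 and 1.8, and the third of Mrpl1 39.6 and 6.4, all below the floor. Leaving out _x_at and _s_at probe sets moved 1 (Mrps6) and removed 3 genes. The lack of replicates limits how far any of these values can be read, and 17 member probe sets below the floor on both arrays gave no difference.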
